A study of Mus musculus with 2 samples.

Results

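The 30 genes described here encode the enzymes that build cholesterol and the proteins that sense, regulate and export it. They were chosen by symbol, as every feature entry whose name stood in a fixed list, and all 30 were present among the 31053 genes counted. By role they fall into 8 genes of the mevalonate arm (Acat2, Hmgcs1, Mvk, Pmvk, Mvd, Idi1, Fdps and Ggps1) and 11 of the sterol arm (Fdft1, Sqle, Lss, Cyp51, Tm7sf2, Msmo1, Nsdhl, Hsd17b7, Ebp, Sc5d and Dhcr7). A further 6 control the SREBP transcription factors or bind sterol (Srebf1, Srebf2, Scap, Insig1, Insig2 and Stard4), and 5 belong to the LXR receptors and their targets (Nr1h2, Nr1h3, Abca1, Abcg1 and Mylip). Several well-known genes of the same pathway are outside the list and were not analysed here.

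The mice were 16 weeks old, and single-cell RNA was read from kidney cortex in 1 library named PT I-PpoI and 1 named wild type. I-PpoI is a slime mould homing endonuclease that cuts DNA, and the series title places its expression in proximal tubule epithelium. The labels name neither the promoter driving it nor any further allele or treatment, and the wild-type sample carries no other description. No feature entry for I-PpoI or for Cre was counted, so the transgene itself could not be read. Because each group is 1 library, no test between the groups exists, and a difference between the genotypes cannot be told apart from a difference between these libraries. Intervals below are 95% intervals that cover counting error only, except that an interval on a median over members gives the spread among those genes, which are not replicates.

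Cholesterol is built from acetyl units. Acat2 joins a pair of them, Hmgcs1 adds another, and the kinases Mvk and Pmvk with the decarboxylase Mvd turn mevalonate into an isoprenoid that Idi1 isomerises and Fdps lengthens to farnesyl pyrophosphate. Ggps1 makes the longer geranylgeranyl chain used to lipidate proteins, while Fdft1, Sqle and Lss commit farnesyl units to squalene and close the ring to lanosterol. Cyp51, Tm7sf2, Msmo1, Nsdhl, Hsd17b7, Ebp, Sc5d and Dhcr7 then trim and rearrange lanosterol into cholesterol. When membrane sterol is low, Scap escorts the SREBP precursors out of the endoplasmic reticulum, and Srebf2 in particular switches on the synthesis genes, whereas Insig1 and Insig2 hold Scap back. When oxysterols accumulate, the LXR receptors Nr1h2 and Nr1h3 raise the exporters Abca1 and Abcg1 and the ubiquitin ligase Mylip, which marks lipoprotein receptors for breakdown. The proximal tubule takes up filtered lipoproteins and makes sterol itself, and macrophages are known for LXR-driven efflux.

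The promoters of 5 members are shown. Hmgcs1, Idi1, Cyp51 and Ebp are among the genes followed below over clusters of proximal tubule-like cells. Msmo1, like Hmgcs1, holds the core of the sterol regulatory element. Sequences are RefSeq windows on GRCm38.p6, each 300 bases long on the strand of its gene, with 250 bases before the transcript start and 50 after it. Capitals mark TCACNCCA and CCAAT, and the reverse complement of CCAAT, which is ATTGG.
Hmgcs1, chr13:119690101-119690400, plus strand: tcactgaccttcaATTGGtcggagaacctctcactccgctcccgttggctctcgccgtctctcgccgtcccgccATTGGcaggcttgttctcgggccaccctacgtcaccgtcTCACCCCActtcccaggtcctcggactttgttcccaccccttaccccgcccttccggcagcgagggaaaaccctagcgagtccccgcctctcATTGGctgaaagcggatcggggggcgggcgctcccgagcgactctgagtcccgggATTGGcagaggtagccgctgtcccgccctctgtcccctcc
Idi1, chr13:8885356-8885655, plus strand: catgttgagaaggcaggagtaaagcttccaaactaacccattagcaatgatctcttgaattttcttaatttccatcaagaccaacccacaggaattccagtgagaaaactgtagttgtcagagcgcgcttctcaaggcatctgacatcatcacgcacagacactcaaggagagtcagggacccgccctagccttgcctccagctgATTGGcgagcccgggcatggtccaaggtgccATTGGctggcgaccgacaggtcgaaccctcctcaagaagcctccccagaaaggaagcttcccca
Cyp51, chr5:4104648-4104947, minus strand: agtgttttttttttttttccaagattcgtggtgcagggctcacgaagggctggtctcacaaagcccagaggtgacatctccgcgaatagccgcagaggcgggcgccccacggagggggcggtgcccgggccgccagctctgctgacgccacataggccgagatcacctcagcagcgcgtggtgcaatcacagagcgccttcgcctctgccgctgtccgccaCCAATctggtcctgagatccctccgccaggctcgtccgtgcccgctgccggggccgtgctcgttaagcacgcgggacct
Ebp, chrX:8193463-8193762, minus strand: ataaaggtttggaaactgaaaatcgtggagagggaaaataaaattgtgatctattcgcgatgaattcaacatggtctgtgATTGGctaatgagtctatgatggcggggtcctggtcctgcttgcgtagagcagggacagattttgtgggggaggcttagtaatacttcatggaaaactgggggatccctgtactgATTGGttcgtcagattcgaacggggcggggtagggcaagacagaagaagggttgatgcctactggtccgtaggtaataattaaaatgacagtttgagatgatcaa
Msmo1, chr8:64733529-64733828, minus strand: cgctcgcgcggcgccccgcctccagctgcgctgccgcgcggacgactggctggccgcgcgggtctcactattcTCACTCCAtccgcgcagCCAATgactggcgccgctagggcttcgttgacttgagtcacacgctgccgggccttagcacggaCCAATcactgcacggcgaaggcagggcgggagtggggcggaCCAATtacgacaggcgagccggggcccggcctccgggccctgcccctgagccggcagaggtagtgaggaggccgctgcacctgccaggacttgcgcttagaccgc

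The core element TCACNCCA, to which SREBP proteins bind, was found on the strand of the gene in Hmgcs1 and Msmo1. It stood 137 bases before the RefSeq transcript start of Hmgcs1 and 177 bases before that of Msmo1. In the GENCODE coordinates the Msmo1 gene reaches 64733792, so its match lies inside that annotated gene. Motifs were searched on both strands in the promoters of 25 members, which have 34 windows among the 32851 of all genes. Fdps, Sqle, Fdft1 and Abcg1 were among the members not searched, because no promoter sequence was found for them. The counts below therefore say nothing about those genes. TCACNCCA stood in 3 of the 25 (Hmgcs1, Msmo1 and Srebf2), in 8.82% of member windows against 4.36% of all windows. Its longer form TCACNCCAC, which contains the core, stood in Hmgcs1 alone, in 2.94% of member windows against 1.24% of all. CCAAT, a box bound by NF-Y, was held by 20 of the 25 members and by 61.8% of their windows, against 37.4% of all windows. The GC box GGGCGG was held by 21 of 25 members and by 73.5% of their windows, against 35.7% of all. The consensus direct repeat of the LXR receptors was in none of the 25 and in 0.0152% of all windows. A match is a string of letters in a window and was not tied to any value below.

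The PT I-PpoI library held 93257620 UMIs (unique molecular identifiers, 1 per captured transcript) and the wild-type library 107977310. After barcodes were called and filtered, 5086 PT I-PpoI and 11917 wild-type cells remained, with medians of 11186 and 2696 UMIs, and 24 barcode sequences occurred in both. Cells were clustered with the 30 members kept out of the variable genes, and clusters were named from marker genes, so that each class below is PT-like, macrophage-like and so on. Markers of each cortical nephron segment, of endothelium and of immune cells were read. 13 classes held at least 50 cells in each library and were compared. PT-like cells made up 3.28% of PT I-PpoI and 49.5% of wild-type cells (167 and 5901 cells), which were of unequal depth, with medians of 10999 and 3152 UMIs. Free RNA, estimated from markers of other classes, lay between 3.29% and 35.6% of UMIs across PT I-PpoI classes and between 9.17% and 62.6% across wild-type classes, the highest being parietal epithelium-like cells for PT I-PpoI and mural-like cells for wild type.

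Levels are in CPM, meaning that the UMIs of a gene, summed over a class in a library, were divided by all UMIs of that class and multiplied by 1000000. They order classes within a gene and are not compared between genes. The mevalonate arm was led by PT-like cells at its first step in both libraries. Hmgcs1 stood at 255 CPM (234 to 278) in PT I-PpoI and 322 CPM (316 to 328) in wild-type PT-like cells, its highest class in each. Its lowest classes were macrophages in PT I-PpoI, at 29.4 CPM, and T or NK cells in wild type, at 33.1 CPM. Acat2 was likewise highest in PT-like cells, at 55.4 CPM in PT I-PpoI and 44.8 CPM in wild type, and lowest in macrophages, at 5.61 and 5.80 CPM. Acat2 has a near-identical neighbour, Acat3, with which its reads may be shared, so its values are uncertain.

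Later mevalonate steps did not share a leading class. Fdps was highest in distal convoluted tubule-like cells in both libraries, at 72.1 CPM in PT I-PpoI and 69.9 CPM in wild type. Pmvk was highest in intercalated-like cells, at 106 and 83.2 CPM in PT I-PpoI and wild type. Idi1 was highest in the distal convoluted tubule in PT I-PpoI (89.1 CPM) and in PT-like cells in wild type (135 CPM), so its leading class differed between the libraries. Mvd, the decarboxylase, was highest in PT-like cells of both libraries, at 31.4 CPM in PT I-PpoI and 36.6 CPM in wild type. It was lowest in connecting tubule-like cells of PT I-PpoI (2.47 CPM) and thin limb-like cells of wild type (2.61 CPM). Ggps1 was led by endothelium, at 51.5 CPM in PT I-PpoI and 50.01 CPM in wild type.

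The sterol arm did not have a single leading class. Msmo1, Fdft1 and Tm7sf2 were highest in distal convoluted tubule-like cells of both libraries, Msmo1 at 109 CPM in PT I-PpoI and 114 CPM in wild type. Nsdhl led in PT-like cells, at 41.2 and 35.7 CPM in PT I-PpoI and wild type. Thin limb-like cells led for Hsd17b7, at 44.1 CPM in PT I-PpoI and 30.0 CPM in wild type, and for Sc5d, at 36.8 and 35.2 CPM. Ebp was highest in intercalated-like cells in PT I-PpoI (93.8 CPM) and in macrophages in wild type (82.2 CPM), the same 2 classes taking the leading places in both. Sqle, which puts oxygen on squalene, spanned 14.5-fold over the classes in PT I-PpoI and 19.3-fold in wild type. It was at 63.9 CPM in PT I-PpoI and 40.4 CPM in wild-type thin limb-like cells and at 62.8 and 56.6 CPM in parietal-like cells. Sqle was at 4.42 CPM in PT I-PpoI and 7.12 CPM in wild-type principal-like cells, and 4.94 and 7.15 CPM in connecting tubule-like cells. Its lowest class was principal-like cells in PT I-PpoI but T or NK-like cells in wild type, at 2.94 CPM.

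The control genes were spread differently. Stard4, a soluble sterol carrier, was highest in connecting tubule-like cells at 112 CPM in PT I-PpoI and 72.5 CPM in wild type, and Srebf1 was highest there too, at 39.9 and 28.6 CPM. Srebf2 was highest in dendritic-like cells, at 84.8 CPM in PT I-PpoI and 61.8 CPM in wild type, and lowest in the connecting tubule, at 32.5 and 26.6 CPM. Insig1 was led by endothelium, at 45.8 CPM in PT I-PpoI and 29.0 CPM in wild type. Insig2 was highest in parietal-like and thin limb-like cells, at 91.6 and 83.1 CPM for PT I-PpoI and 79.5 and 80.8 CPM for wild type, so the leading class differed between the libraries. Thus the pair of Insig genes was led by different classes.

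Within the LXR group, the receptor Nr1h3 and the exporters were led by different classes. Nr1h3, the LXR alpha receptor, was highest in PT-like cells, at 28.9 CPM in PT I-PpoI and 32.05 CPM in wild type, followed by parietal-like cells at 21.1 and 21.7 CPM. PT-like cells held almost no Abcg1, with 0 UMIs in PT I-PpoI, where 3 counts would be 1.47 CPM of 2041072 UMIs, and 12 UMIs or 0.360 CPM in wild type. Abcg1 was highest in thin limb-like cells, at 76.3 CPM in PT I-PpoI and 107 CPM in wild type. Abca1 was led by endothelium, at 50.8 and 53.4 CPM in PT I-PpoI and wild type, and Mylip by principal-like cells, at 82.1 and 89.5 CPM. Nr1h2, the LXR beta receptor, was read in all 13 classes, at 24.9 to 85.2 CPM in PT I-PpoI and 21.3 to 66.4 CPM in wild type. It was highest in endothelium in PT I-PpoI and in thin limb-like cells in wild type, classes that also led for Abca1 and Abcg1.

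**Figure D1:**
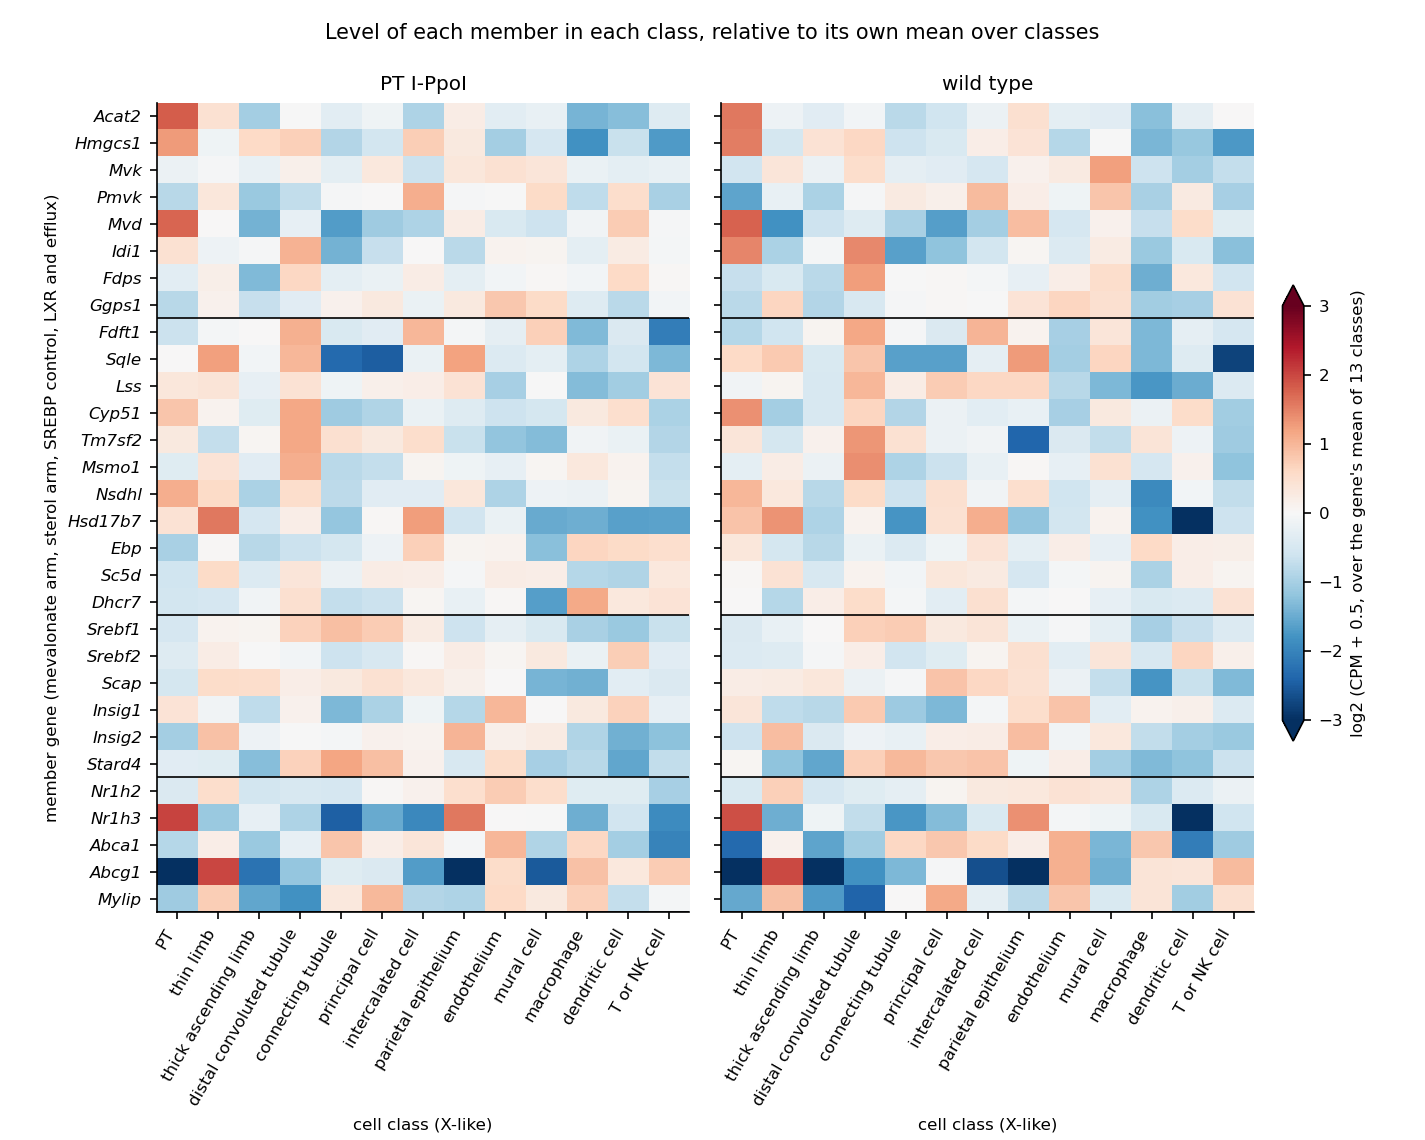
Level of each of the 30 members (down the page, by role) in 13 cell classes (across), with PT I-PpoI left of wild type; colour gives the log2 ratio of a member's CPM plus 0.5 to its mean over the classes of its library, so colours order classes within a member and not members. Hmgcs1 and Acat2 are reddest in PT-like cells of both libraries, Abcg1 in thin limb-like cells and Mylip in principal-like cells.

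The order of classes was kept between the libraries to different degrees. Over the 13 classes, Spearman's rho between the CPM of PT I-PpoI and of wild type, given as a description, ran from 0.30 for Dhcr7 to 0.96 for Insig2. It was 0.94 for Abcg1, 0.93 for Hmgcs1 and 0.92 for Mylip, and 0.84 for the sum of the 19 synthesis enzymes. Members also differed in how far they followed that sum, taken without the member itself. For Sqle rho was 0.77 among PT I-PpoI classes and 0.80 among wild-type ones, and for Nsdhl 0.71 and 0.76, so that these enzymes had class patterns close to the rest. Ebp went the other way, at −0.24 among PT I-PpoI and −0.15 among wild-type classes, as did Ggps1 at −0.30 and −0.06. Mylip, which LXR raises, stood at −0.52 and −0.60. These points share a library, its depth and its free RNA.

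In PT-like cells the 19 synthesis enzymes summed to 758 CPM (721 to 797) in PT I-PpoI and 927 CPM (917 to 938) in wild type. Within cluster 9 alone, which held 114 of the 167 PT I-PpoI cells of this class, the sum was near level. It was 679 CPM (638 to 722) in PT I-PpoI and 672 CPM (655 to 690) in wild type. Single members lay on both sides. Abca1 and Fdps were at least 2-fold higher in PT I-PpoI, and Ebp and Idi1 at least 2-fold lower. These are 2 higher and 2 lower of 30 members tested, where 16% of all 13067 genes tested in PT-like cells were at least 2-fold higher and 4.94% at least 2-fold lower. The median log2 ratio of PT I-PpoI over wild type was 0.19 over the 30 members (interval over members −0.21 to 0.39) and 0.32 over all genes, with 17 members above 0 and 13 below. TMM scaling moves every PT-like ratio by −0.36 and turns the sign of the member median, to −0.16.

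Abca1, the exporter that loads cholesterol onto lipoprotein particles, is on mouse chromosome 4 (53030787 to 53159895, minus strand, mm10). It had 28 UMIs in PT I-PpoI cells of this class and 152 in wild-type ones, or 13.7 CPM (9.12 to 19.8) and 4.57 CPM (3.87 to 5.35). The intervals of the libraries did not overlap. The log2 ratio was 1.61 (0.95 to 2.18), 1.52 with free RNA subtracted and 1.25 under TMM. Fdps, on chromosome 3 (89093588 to 89101959, minus strand), was at 37.2 CPM in PT I-PpoI and 17.7 CPM in wild type, a log2 ratio of 1.08 (0.71 to 1.42). 1 PT I-PpoI cell held 9 of the 76 Fdps UMIs, and the ratio was under 2-fold with free RNA subtracted (0.91), under TMM (0.72) and as a mean over cells (0.76).

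Idi1, the isomerase on chromosome 13 (8885501 to 8892451, plus strand), was at 58.8 CPM (48.7 to 70.3) in PT I-PpoI and 135 CPM (131 to 139) in wild-type PT-like cells. Its log2 ratio was −1.19 (−1.47 to −0.94). Ebp, the sterol isomerase on chromosome X (8185329 to 8193512, minus strand), was at 28.9 CPM in PT I-PpoI and 68.9 CPM in wild type, a log2 ratio of −1.24 (−1.65 to −0.88). Both were therefore lower in PT I-PpoI when all PT-like cells were summed. The PT-like cells of the libraries came from different clusters, however. Of 167 PT I-PpoI cells 114 lay in cluster 9, led by Slc5a12, Slc5a2 and Slc6a19, genes of the early proximal tubule, while only 829 of 5901 wild-type cells did. Large wild-type clusters with few PT I-PpoI cells were cluster 11 (Gatm-led, 30 and 1224 cells in PT I-PpoI and wild type), cluster 25 (Inmt and Kap, 1 and 1203 cells), cluster 32 (Slco1a1 and Slc7a13, 9 and 740 cells) and the shallow cluster 5 (3 and 1212 cells).

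With wild-type clusters weighted to the PT I-PpoI mix, the Idi1 ratio was −0.10 and that of Ebp −0.35. Within cluster 9 alone Idi1 was 47.2 CPM (36.9 to 59.6) in PT I-PpoI and 36.8 CPM in wild type, a log2 ratio of 0.37, so its direction turned. Ebp was 23.3 and 25.5 CPM there in PT I-PpoI and wild type, a log2 ratio of −0.11. Abca1 kept its direction, at 14.6 CPM in PT I-PpoI and 5.73 CPM in wild-type cells of cluster 9, a log2 ratio of 1.37, and 1.45 with the mix matched. Fdps was under 2-fold in both forms, at 0.67 and 0.74. Both forms were chosen after seeing the data, and the part of the cluster mix in these differences was not tested beyond these values.

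Other PT-like members lay within 2-fold. Hmgcs1 had a log2 ratio of −0.33 (−0.46 to −0.21) over all PT-like cells and −0.03 in cluster 9. Cyp51, which removes a methyl group from lanosterol, was at 56.8 CPM in PT I-PpoI and 84.8 CPM in wild type (−0.57), and Sc5d at 16.2 and 26.5 CPM (−0.69). Sc5d was the steadier of these, with −0.69 under the matched mix and −0.83 in cluster 9, while Cyp51 was at 0.26 and −0.41. The kinases lay on the other side. Pmvk was at 27.4 CPM in PT I-PpoI and 14.1 CPM in wild type (0.97, and 1.28 in cluster 9), and Mvk at 12.2 and 6.46 CPM (0.95, and 1.03 in cluster 9). Among control genes Insig1 was at 30.4 CPM in PT I-PpoI and 20.5 CPM in wild type (0.57) and Srebf2 at 38.7 and 29.8 CPM (0.39), but in cluster 9 these ratios were 0.11 and 0.04. Stard4 was level, at 38.7 and 38.4 CPM.

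**Figure D2:**
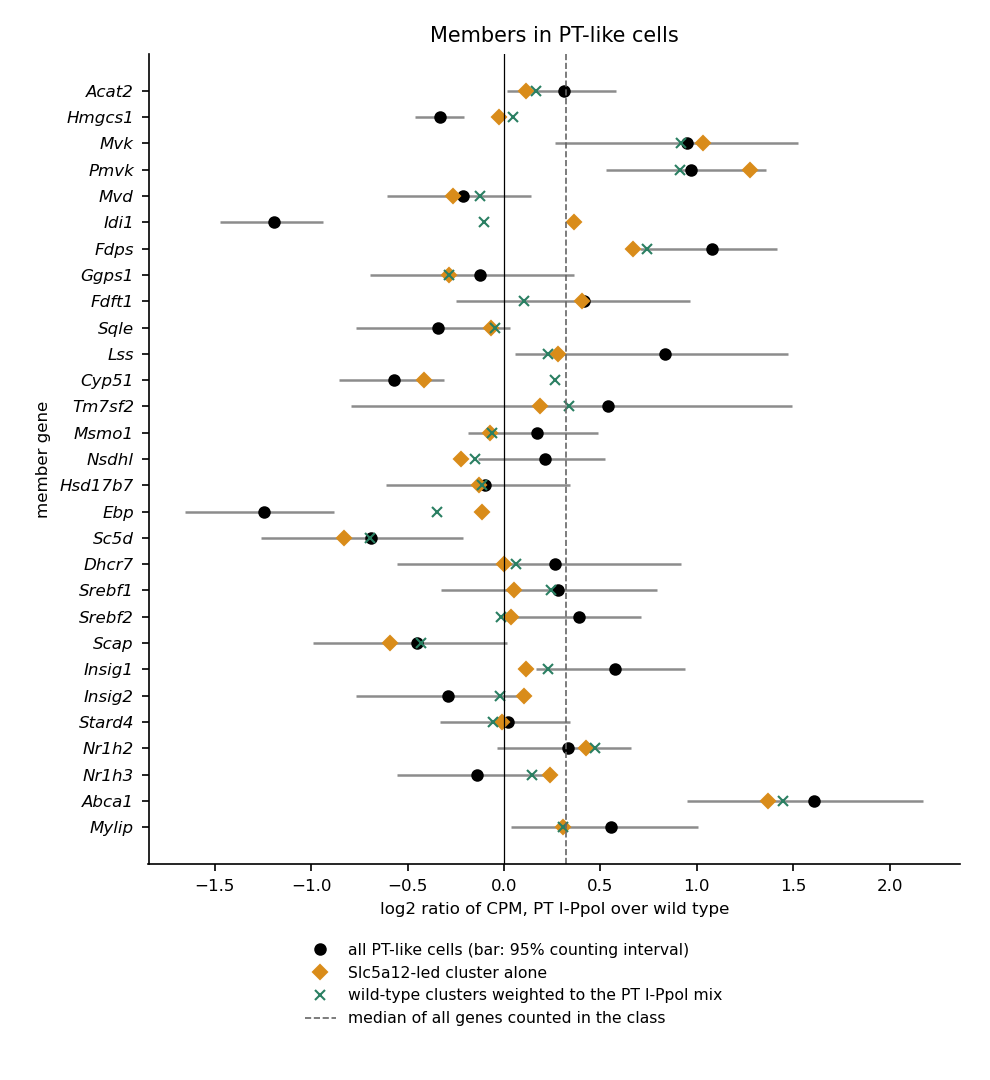
Log2 ratio of CPM in PT-like cells, PT I-PpoI over wild type, for the members with UMIs in both libraries; black points are ratios with 95% counting intervals as bars, crosses the ratios with wild-type clusters weighted to the PT I-PpoI mix, diamonds those in cluster 9 (Slc5a12-led) alone, and the dashed line the median of all genes (0.32). Abca1 (1.61) and Fdps (1.08) lie furthest right and Ebp (−1.24) and Idi1 (−1.19) furthest left, and the left-hand pair moves towards 0 under both added forms; Abcg1, with 0 UMIs in PT I-PpoI, is left out.

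Within wild-type PT-like cells the synthesis enzymes differed by cluster, which is given as a description because clusters come from the same cells. Their sum was lowest, at 596 CPM, in the shallow cluster 5. It was 672 CPM in cluster 9, 674 in cluster 11, 923 in cluster 10 (Slc22a8, Slc13a3 and Slc22a6), 878 in cluster 25, 1138 in cluster 32 and 1753 CPM in cluster 34 (Slc22a7 and Cyp7b1). Slc5a2 marks the early and Slc22a7 and Slc7a13 the late proximal tubule, so clusters led by late-segment genes stood at the upper end. Idi1 was at 36.8, 51.1, 93.6, 161, 224 and 357 CPM in clusters 9, 11, 10, 25, 32 and 34 in that order and 77.6 CPM in cluster 5, a 9.70-fold span over the 7 clusters. Cyp51 had 35.8 CPM in cluster 9, 27.1 in cluster 11 and 428 CPM in cluster 34, a 15.8-fold span. Ebp had 25.5 CPM in cluster 9 and 150 CPM in cluster 34, a 5.87-fold span. No single cell carried these levels in cluster 34. The cell with the most UMIs of the gene gave 26 of 652 for Idi1 and 18 of 781 for Cyp51.

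Hmgcs1 had a narrower span of 1.93-fold, with 221 CPM in clusters 9 and 11 and 427 CPM in cluster 34. Not every member shared that order. Fdps was 23.2 CPM in cluster 9, 9.48 in cluster 32 and 17.5 CPM in cluster 34. Srebf2, the regulator of these enzymes, was 45.0 CPM in cluster 9 and 15.9 CPM in cluster 34, opposite to Idi1, Cyp51 and Ebp. Median UMIs per cell, taken over the cells of both libraries together, did not follow the same order. The medians were 9514 in cluster 9, 2180.5 in cluster 11, 10397 in cluster 10, 2850.5 in cluster 25, 11606 in cluster 32 and 3798 in cluster 34.

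PT I-PpoI had few cells outside clusters 9 and 11. In cluster 32 its 9 cells had an Idi1 level of 143 CPM (95.6 to 205) against 47.2 CPM in cluster 9, and a Cyp51 level of 231 CPM (170 to 308) against 26.6 CPM. A single cell held 15 of the 29 Idi1 UMIs and 25 of the 47 Cyp51 UMIs of that cluster, so these levels rest largely on it. The synthesis sum there was 1324 CPM, against 679 CPM in cluster 9 of the same library.

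**Figure D3:**
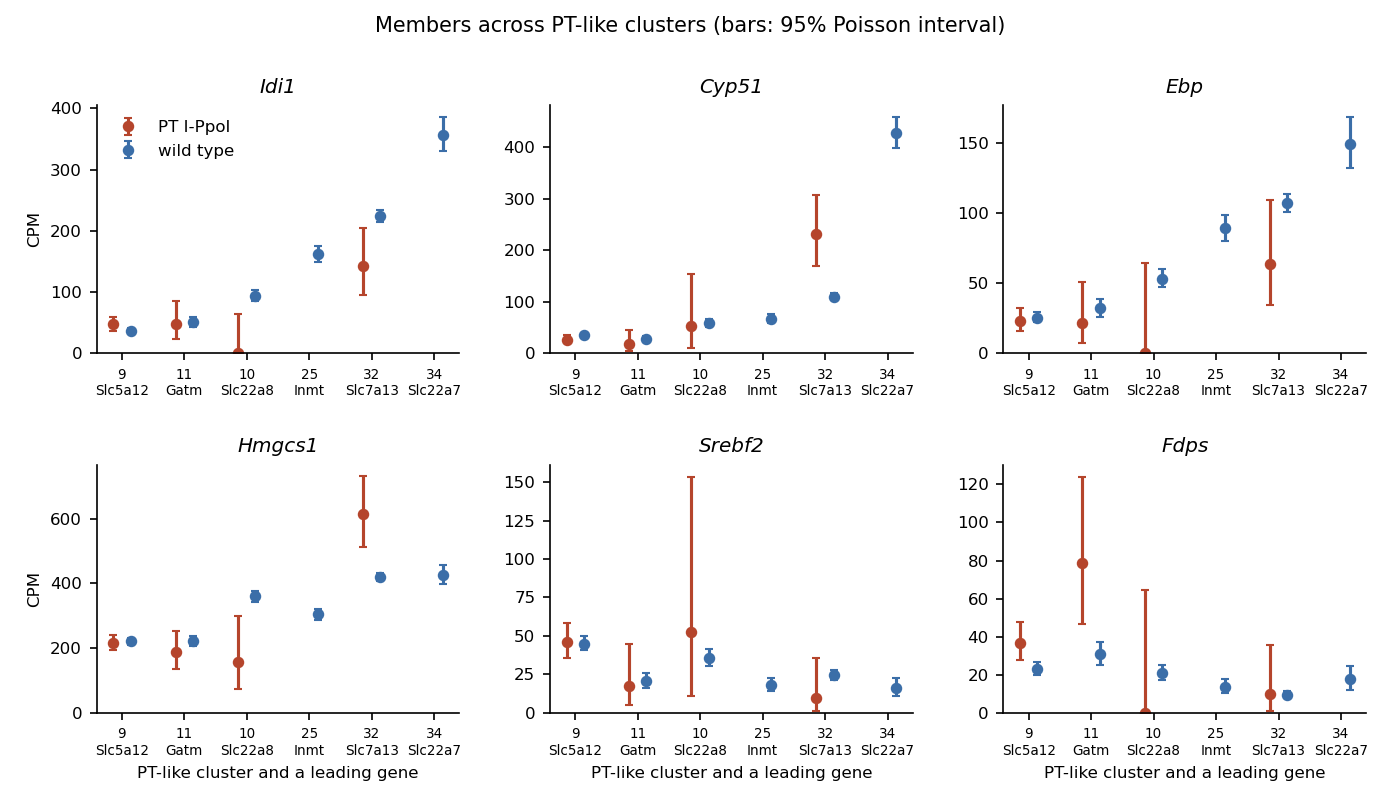
CPM of Idi1, Cyp51, Ebp, Hmgcs1, Srebf2 and Fdps (1 panel each) in 6 PT-like clusters named by number and a leading gene, with PT I-PpoI points left of wild-type points and bars for 95% Poisson intervals; clusters with 1 PT I-PpoI cell have no PT I-PpoI point. In wild type Idi1 is at 36.8 CPM in cluster 9 and 357 CPM in cluster 34, where Srebf2 is at 45.0 and 15.9 CPM, and most PT I-PpoI cells (114 of 167) sit in cluster 9.

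Macrophage-like cells had the largest ratios of all classes for synthesis genes with at least 30 UMIs. Dhcr7, which catalyses the last reduction to cholesterol and lies on chromosome 7 (143823145 to 143848410, plus strand), had 42 UMIs in PT I-PpoI cells and 11 in wild-type cells. That is 29.4 CPM (21.2 to 39.8) and 5.32 CPM (2.66 to 9.52), a log2 ratio of 2.42 (1.49 to 3.58). The UMIs came from 33 of 253 PT I-PpoI cells and 11 of 683 wild-type cells, so no single cell carried them. Fdps had 63 and 21 UMIs in PT I-PpoI and wild type, 44.2 CPM and 10.2 CPM, a log2 ratio of 2.10 (1.39 to 2.91). Nsdhl, a dehydrogenase of the demethylation steps on chromosome X, had 24 and 9 UMIs, 16.8 CPM in PT I-PpoI and 4.35 CPM in wild type, a log2 ratio of 1.90 (0.79 to 3.24). All 3 stayed above 2-fold with free RNA subtracted (2.45, 2.05 and 3.20), whose estimated share of macrophage UMIs was 15.3% for PT I-PpoI and 21.1% for wild type. Median depth was 4960 UMIs per PT I-PpoI and 2702 per wild-type macrophage, and its part in these values was not tested.

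In macrophages 4 of 29 members tested were at least 2-fold higher, Msmo1 being the other (63.8 CPM in PT I-PpoI and 30.5 CPM in wild type, 1.06), against 6.43% of all genes. Only Nr1h3, with 15 UMIs in all, was at least 2-fold lower, against 6.29% of all genes. The member median was 0.46 (interval over members 0.13 to 0.73) beside 0.13 over all genes, with 24 members above 0 and 5 below. In the sterol arm 10 of 10 tested members were above 0, with a median of 0.57, which became 7 of 10 and 0.41 under TMM. The synthesis sum was 470 CPM (435 to 507) in PT I-PpoI and 317 CPM (293 to 342) in wild type. Control genes lay on the same side, with Stard4 at 27.3 and 14.5 CPM in PT I-PpoI and wild type (0.91), Insig1 at 28.0 and 16.9 CPM (0.73) and Srebf2 at 44.2 and 28.0 CPM (0.65). Hmgcs1 lay on the other side, at 29.4 CPM in PT I-PpoI and 42.6 CPM in wild type (−0.52). The exporter Abcg1 was level in macrophages, at 35.1 and 34.8 CPM in PT I-PpoI and wild type.

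Thin limb-like cells had the highest member median, 0.60 (interval over members 0.32 to 0.67), beside 0.02 over all genes of that class, from 77 PT I-PpoI and 73 wild-type cells with median depths of 17280 and 5396 UMIs. Of 28 members tested 25 were above 0, and 6 were at least 2-fold higher and 0 lower, against 5.6% and 3.76% of all genes. With free RNA subtracted the median was 0.54 and 20 were above 0. Fdps was at 53.2 CPM in PT I-PpoI and 20.8 CPM in wild type (1.31, 0.58 to 2.22), Stard4 at 38.5 and 15.6 CPM (1.25, 0.40 to 2.32) and Insig1 at 20.9 and 9.12 CPM (1.12, 0.01 to 2.61). The Insig1 value turned to −0.19 as a mean over cells. Cyp51 was at 33.9 and 15.6 CPM in PT I-PpoI and wild type (1.07), and Mvd and Dhcr7 reached 1.52 and 1.03 on 18 and 19 UMIs. All 6 control genes were above 0, with a median of 0.78, whereas the 4 LXR group members tested had a median of −0.03. Abcg1, at its highest in this class, was at 76.3 CPM in PT I-PpoI and 107 CPM in wild type (−0.49, −0.89 to −0.07).

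**Figure D4:**
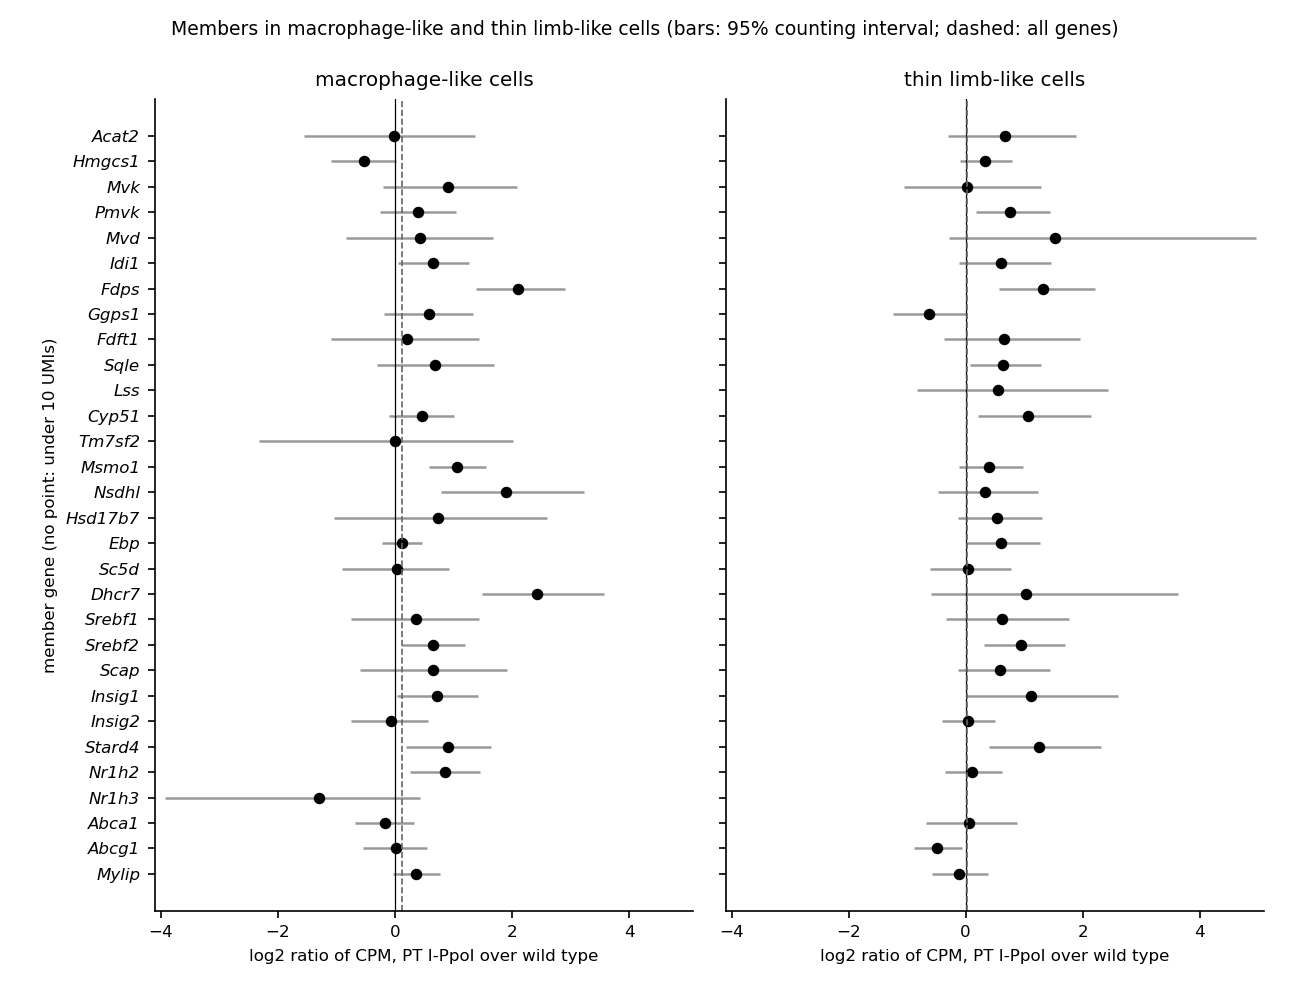
Log2 ratio of CPM, PT I-PpoI over wild type, of the members with at least 10 UMIs in macrophage-like (left) and thin limb-like cells (right), with 95% counting intervals as bars and the median of all genes as a dashed line. Dhcr7 (2.42), Fdps (2.10) and Nsdhl (1.90) lie furthest right in macrophages, and 25 of 28 members lie right of 0 in thin limb-like cells.

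Over all 13 classes 377 of 390 pairs of member and class were tested. 24 were at least 2-fold higher and 12 at least 2-fold lower in PT I-PpoI, against 6.22% and 5.77% of the 146828 pairs of all genes and classes, so the members' shares were near those of all genes in the higher direction and below them in the lower. Fdps had a ratio above 0 in all 13 classes, from 0.04 in the distal convoluted tubule to 2.10 in macrophages, also under TMM, and in 10 of 13 with free RNA subtracted. Dhcr7, Mvk, Srebf2, Stard4 and Nr1h2 were above 0 in 12 of 13 classes each. Under TMM this was 11 of 13 for Dhcr7, Srebf2 and Nr1h2, 12 for Mvk and 9 for Stard4. The counting interval lay above 0 in fewer classes, 8 for Fdps, 7 for Stard4, 6 for Srebf2, 3 for Dhcr7 and Mvk and 2 for Nr1h2. It lay below 0 for Stard4 in 1 class. The median over all genes was itself above 0 in several classes. Nr1h3 was below 0 in all 9 classes in which it was tested, in 6 of 9 with free RNA subtracted or as a mean over cells, and in 7 of 9 with the cluster mix matched. Its ratios ran from −2.04 to −0.06, with a counting interval below 0 in 1 of the 9 classes. In PT-like cells, its highest class, the ratio of −0.14 turned to 0.24 in cluster 9 alone, where Nr1h3 was at 27.9 CPM in PT I-PpoI and 23.9 CPM in wild type.

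The control genes lay above 0 together in several classes. All 6 did so in thick ascending limb-like cells (median 0.43, beside 0.09 over all genes), in connecting tubule-like cells (0.37, beside 0.05) and in endothelium (0.58, beside 0.19, with 5 of 6 under TMM). With the cluster mix matched the median was 0.29 in thick ascending limb-like cells (6 of 6 above 0) and 0.42 in endothelium (5 of 6). In connecting tubule-like cells only 1 of the 29 members tested had a counting interval above 0. Stard4 was at 20.0 CPM in PT I-PpoI and 12.2 CPM in wild-type thick ascending limb-like cells (0.70), at 112 and 72.5 CPM in connecting tubule-like cells (0.62) and at 72.6 and 42.1 CPM in endothelium (0.79). Endothelial Srebf2 was at 52.6 CPM in PT I-PpoI and 31.6 CPM in wild type (0.73) and Insig1 at 45.8 and 29.0 CPM (0.66). The direction was not general, since Stard4 was at 54.0 and 66.7 CPM in PT I-PpoI and wild-type intercalated-like cells (−0.31) and Insig1 at 12.3 and 22.9 CPM in parietal-like cells (−0.90).

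The exporter Abcg1 had its clearest difference in endothelium, where it was at 27.4 CPM in PT I-PpoI and 56.7 CPM in wild type, a log2 ratio of −1.05 (−1.31 to −0.79). It was the only member there at 2-fold, with 0 of 30 higher and 1 lower, against 6.73% and 5.67% of all genes. The ratio was −0.61 as a mean over cells and −0.37 with the cluster mix matched. In each of the endothelial clusters 12, 14 and 16 Abcg1 was lower in PT I-PpoI, but the counting intervals of the libraries overlapped in each. It was at 12.6 CPM in PT I-PpoI and 18.0 CPM in wild type in cluster 12 (Slc14a1-led, 281 and 364 cells). In the same order it was at 58.9 and 68.7 CPM in cluster 14 (435 and 1461 cells) and 71.0 and 109 CPM in cluster 16 (78 and 227 cells). Endothelial Abca1 was level, at 50.8 CPM in PT I-PpoI and 53.4 CPM in wild type. In principal-like cells both exporters were lower. Abca1 was at 28.8 CPM in PT I-PpoI and 44.5 CPM in wild type (−0.63), and Abcg1 at 13.7 and 26.1 CPM (−0.94). Within the principal-like clusters Abcg1 was at 8.24 and 11.9 CPM in cluster 3 and 26.5 and 40.3 CPM in cluster 6. The counting intervals of the libraries overlapped in both clusters, as they did for Abca1. For Abca1 in cluster 3 the overlap was narrow, with 26.7 CPM (22.8 to 31.1) in PT I-PpoI and 43.9 CPM (30.9 to 60.5) in wild type. Overlap does not place a difference within counting error, and no interval on the ratio is given for single endothelial or principal-like clusters. The LXR group median of this class was −0.63, but −0.28 with the cluster mix matched and −0.20 with free RNA subtracted.

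The remaining classes had few members at 2-fold. In thick ascending limb-like cells 0 of 30 were higher and 1 lower, against 3.65% and 5.08% of all genes, the lower being Mvd at 3.04 CPM in PT I-PpoI and 6.59 CPM in wild type (−1.13, −1.79 to −0.41). In principal-like cells 1 was higher and 0 lower of 30, against 3.92% and 5.3%, and this was Mvk at 17.2 and 7.71 CPM in PT I-PpoI and wild type (1.11, 0.34 to 2.10), whose ratio was under 2-fold with the cluster mix matched (0.91) and as a mean over cells (0.83). Intercalated-like cells had 1 each way of 30, against 2.33% and 6.57%. There Tm7sf2, a sterol reductase, was at 4.67 CPM in PT I-PpoI and 1.92 CPM in wild type (1.196), and Nr1h3 at 1.38 and 5.77 CPM (−2.04, −3.18 to −0.999, and −1.63 with free RNA subtracted). Parietal-like cells had 1 of 28 lower, against 3.53%, which was Idi1 at 24.1 CPM in PT I-PpoI and 50.6 CPM in wild type (−1.07), and 0 higher, against 5.68%. Connecting tubule-like cells had 0 higher and 1 lower of 29 (Mvd, on 11 UMIs), against 5.32% and 3.94%. The distal convoluted tubule had none of 30 either way, against 3.56% and 7.16%. Mural-like cells, with the highest wild-type share of free RNA, had 1 higher and 2 lower of 29, against 7.19% and 7.2%.

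In the other immune classes Fdps and Insig1 were among those higher. Dendritic-like cells had 4 of 26 members at least 2-fold higher and 1 lower, against 8.55% and 4.41% of all genes. Insig1, which restrains SREBP processing, was at 37.2 CPM in PT I-PpoI and 17.5 CPM in wild-type dendritic-like cells (1.07, 0.28 to 1.95), and under 2-fold under TMM (0.88) and with the cluster mix matched (0.84). Sc5d was at 12.97 and 29.5 CPM in PT I-PpoI and wild type (−1.16, −2.18 to −0.26, and −0.90 as a mean over cells). T or NK-like cells had 5 of 28 higher and 1 lower, against 5.47% and 11.9%. Fdps was at 48.3 CPM in PT I-PpoI and 19.1 CPM in wild type there (1.33, 0.55 to 2.14), with 7 of 33 PT I-PpoI UMIs in 1 cell and a ratio of 0.80 as a mean over cells. Idi1 was at 41.0 and 19.8 CPM in PT I-PpoI and wild type (1.04, 0.23 to 1.86), but 1 cell held 10 of its 28 UMIs and the ratio was 0.98 under TMM and 0.52 as a mean over cells. All 4 LXR group members tested in T or NK-like cells were below 0, with a median of −0.58.

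**Figure D5:**
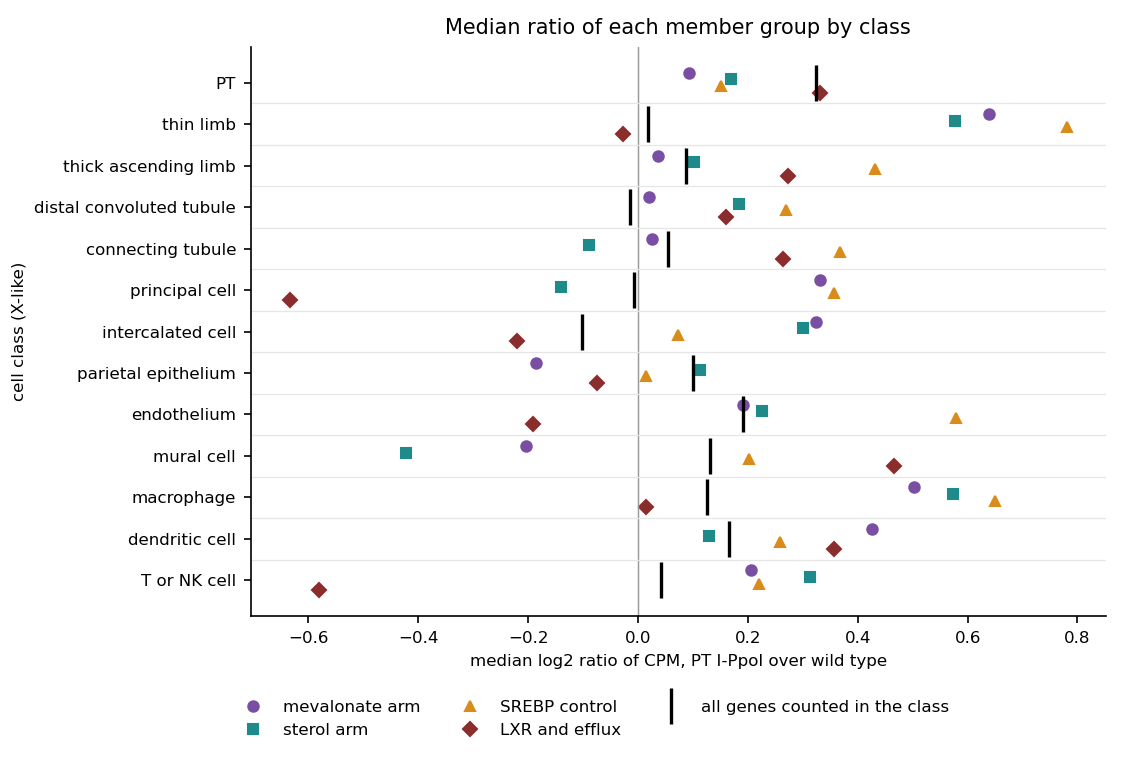
Median log2 ratio of CPM, PT I-PpoI over wild type, for the mevalonate arm, sterol arm, SREBP control and LXR groups in 13 classes, beside the median of all genes tested in the class. The triangles of SREBP control lie right of the all-gene bar in thin limb (0.78), endothelium (0.58), thick ascending limb (0.43) and macrophage (0.65) classes, and the LXR group lies lowest in principal-like (−0.63) and T or NK-like cells (−0.58).

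A list of 72 related genes gives the surroundings of the pathway: SREBP processing, sterol storage and transport, oxysterol and bile acid enzymes, isoprenoid users, fatty acid targets of SREBP and partners of LXR. In PT-like cells 68 were tested, of which 8 were at least 2-fold higher and 3 lower, against 16% and 4.94% of all genes. Their median was 0.21 beside the member median of 0.19. Apoe, the lipoprotein of cholesterol transport, was at 670 CPM in PT I-PpoI and 177 CPM in wild type (1.92, 1.84 to 2.01, and under 2-fold in cluster 9, at 0.97). Arl4c, an LXR target, was at 4.41 and 0.751 CPM in PT I-PpoI and wild type (2.60, 1.27 to 3.70). Cyp7b1, an oxysterol hydroxylase, was at 16.2 CPM in PT I-PpoI and 57.4 CPM in wild type (−1.81) and Cd36, a lipid scavenger receptor, at 73.0 and 178 CPM (−1.28). With the cluster mix matched the Cyp7b1 and Cd36 ratios turned to 0.25 and 0.43. In cluster 9 alone few UMIs were left, 0 from PT I-PpoI and 12 from wild-type cells for Cyp7b1 and 1 and 63 for Cd36, whose ratio there was −2.90.

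The related genes lay nearer to all genes in the classes where the members stood highest. In thin limb-like cells the related median was 0.08 over 58 genes, beside the member median of 0.60. Of these 58, 0 were at least 2-fold higher and 3 lower, against 5.6% and 3.76% of all genes. In macrophages the related median was 0.13 over 59 genes, beside the member median of 0.46. Of these 59, 4 were at least 2-fold higher and 3 lower, against 6.43% and 6.29% of all genes. There Cd36 was at 163 CPM in PT I-PpoI and 71.1 CPM in wild type (1.19, and 1.37 with free RNA subtracted). In dendritic-like cells Pltp, a phospholipid transfer protein, was at 142 CPM in PT I-PpoI and 45.2 CPM in wild type (1.64). The receptor gene Vldlr was at 42.9 and 18.5 CPM in PT I-PpoI and wild-type distal convoluted tubule-like cells (1.19, and 0.98 with the mix matched) and at 28.4 and 12.3 CPM in connecting tubule-like cells (1.16, and 0.73 as a mean over cells). Me1, which supplies reducing power for lipid synthesis, was at least 2-fold lower in PT I-PpoI in 7 classes, by the most in macrophages, with 1 UMI in PT I-PpoI cells and 48 in wild-type cells. Its direction depended on free RNA, and with that subtracted it was −2.72 in the thick ascending limb but 2.50 in endothelium and 2.97 in mural-like cells.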

How the data were processed

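The deposited matrices of the authors hold raw UMI counts, 1 unfiltered matrix of 31053 genes per library. Per the labels' protocols, kidney cortex was digested at 37 °C and run on 10x 3′ kits (v3.1). The submitters' processing notes name mm10, Cell Ranger 3.1 and Seurat 3, while the file headers name Cell Ranger 4. Reads were not processed here.

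Barcodes were called as cells at a first threshold of 5651 (PT I-PpoI) or 3655 (wild type) UMIs, or from 500 UMIs where they differed from the ambient profile in 10000 simulations at a Benjamini-Hochberg rate of 0.01. Of 6885 and 17617 called barcodes, those with at least 200 genes and at most 50% mitochondrial counts were kept. Scrublet (scanpy 1.11.5, expected rate 0.06) then removed 81 (1.57%) and 290 (2.38%) as doublets. Cells of the 2 libraries were pooled, with no batch term, for Leiden clustering at resolution 1 (2000 variable genes, 30 components, 15 neighbours). A class name needed 3 markers read in 10% of cells at 2-fold over the other clusters. The T cell and NK cell marker lists were merged, because they name the same clusters.

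Counts were summed per class and library and divided by the class total to give CPM. A prior of 0.5 count was added for ratios, whose 95% intervals are exact conditional binomial ones; those of levels are exact Poisson ones, and a limit at 0 is 3 counts. No test between groups was run, since each group has 1 library and nothing gives the spread between animals. UMIs of PCR copies are collapsed, so intervals cover counting error only. Ratios were used from 10 UMIs over both libraries. Members are described in full where they had 30 UMIs, a 2-fold ratio and an interval without a ratio of 1, up to 6 each way in PT-like and 3 in other classes; related genes by the same rule, up to 2 each way, of which some are shown. Other members are given as examples of their group, chosen after their values were seen. Free RNA was estimated from markers of other classes and subtracted only as an alternative. TMM factors came from edgeR 4.0.16 on class sums, with no edgeR test. Ratio and interval code was tested on simulated data. The members, their groups and the related list were chosen with earlier results of these data known. 13 alternatives were planned; matching the cluster mix and taking cluster 9 alone were chosen after seeing the data. Gene coordinates are from GENCODE M21 and promoter sequences from RefSeq (GRCm38.p6).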

Additional observations from a re-analysis of the deposited data

Results flagged for a closer look

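Idi1, the isopentenyl isomerase, moved to opposite sides in different classes. Its log2 ratio of PT I-PpoI over wild type was 1.04 in T or NK-like cells and −1.19 in PT-like cells, a difference of 2.24. Against parietal epithelium-like cells, where the ratio was −1.07, the difference was 2.12. These differences between classes were not tested, because each group is 1 library. In T or NK-like cells 1 cell held 10 of the 28 PT I-PpoI UMIs, and in PT-like cells the ratio was 0.37 in cluster 9 alone.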

How the results depend on the processing

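No paired analysis was possible because each group has 1 library, and no replicate could be left out. Of the class medians, the PT-like synthesis median and the pair counts, 206 values under the alternatives were counted as the same, 11 as moved and 1 as turned. For medians, the same meant inside the interval over members of the main value. A turn was counted only where that interval lay wholly on 1 side of no change. Changes of sign inside such an interval were therefore counted as the same, as for the PT-like member median (0.19, and −0.16 under TMM). The member median of the distal convoluted tubule (0.09) turned to −0.15 at Leiden resolution 2 and was 0.010 with free RNA subtracted and 0.46 as a mean over cells. As a mean over cells, it was also 0.40 in connecting tubule-like and 0.26 in parietal-like cells, and 43 pairs were at least 2-fold higher. The dendritic median was 0.55 with cells of at least 2000 UMIs and 0.59 at resolution 2, and the mural median 0.30 with libraries clustered separately. With free RNA subtracted 19 pairs were at least 2-fold lower, and at a minimum of 30 UMIs 15 were higher and 7 lower. For single members 269 values were the same, 10 moved and 2 turned, Insig1 in thin limb-like cells (−0.19 as a mean over cells) and Idi1 in PT-like cells (0.37 in cluster 9 alone). The PT-like synthesis median of 0.17 was −0.19 under TMM, −0.06 with free RNA subtracted and −0.03 in cluster 9 alone. The causes were not tested, except that a higher minimum leaves fewer pairs. Separate clustering gave no connecting tubule, parietal or dendritic class and keeping doublets no connecting tubule class, so those values are missing. Classes with few cells, such as thin limb-like cells (77 PT I-PpoI and 73 wild-type cells), give wide counting intervals.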
